A study of Mus musculus with 9 samples.

Results

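In the EP ZFTA-RELA ependymoma model, 6066 cell barcodes carried transcript of the fusion allele and showed little sign of division. They also reached a count limit for the imprinted growth genes Igf2, H19 and Dlk1 together. They made up 17.1% of the 35482 barcodes kept from the tumors, and 64617 barcodes were kept in the series as a whole. These members were chosen on measured counts. Of each tumor library the 10000 barcodes with most unique molecular identifiers (UMIs, counts of single transcript molecules) were considered, and those with 200 to 6000 detected genes and under 15% mitochondrial UMIs were kept. A member had at least 1 UMI of the sequences added to the genome for the allele (Luc, IRES and the fusion), at least 5 UMIs of Dlk1, H19 and Igf2 together, and fewer than 3 of 8 cycle genes detected (Mki67, Top2a, Cenpf, Birc5, Cdk1, Ube2c, Pclaf and Nusap1). Single-cell 5′ gene expression was measured in 5 tumors of NestinCreERT2;Fus1 mice and in 4 brains of NestinCreERT2;TdT control mice, all aged 6 to 8 weeks. By the study's methods, Fus1 is a lox-stop-lox allele of ZFTA-RELA followed by an IRES and luciferase at Rosa26, switched on by tamoxifen-induced Cre in Nestin-expressing radial glia of the embryo. The controls carried the same Cre driver with a tdTomato reporter in place of the fusion, and the choroid plexus was removed and live cells were sorted before loading. Each tumor was 1 library labeled as a separate sample, so the comparisons below were made over tumors.

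ZFTA-RELA joins a zinc-finger protein to the NF-κB subunit RELA and is the usual driver of supratentorial ependymoma in children. Igf2 encodes a fetal growth factor that signals through the Igf1 receptor, and the non-coding RNA H19 lies beside it, shares its enhancers and is expressed from the opposite parental chromosome. Dlk1 encodes a transmembrane relative of the Notch ligands and lies in another imprinted domain, next to the non-coding RNAs Meg3, Rian and Mirg. Imprinted genes of this kind are high in growing fetal tissue, and most fall silent after birth.

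Tumors differed widely in how many members they held. Tumor 4 held 4409 of 9994 kept barcodes, or 44.1% (95% exact binomial interval 43.1 to 45.1). Tumor 2 held 760 of 5952 (12.8%, interval 11.9 to 13.6) and tumor 5 held 802 of 9993 (8.03%, interval 7.50 to 8.58). Tumors 1 and 3 held few, 26 of 2845 (0.914%, interval 0.598 to 1.34) and 69 of 6698 (1.03%, interval 0.802 to 1.30). The mean share was 13.4% ± 17.9 (SD, n = 5), and tumor 4 supplied 72.7% of all members. The intervals cover counting error only.

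**Figure D1:**
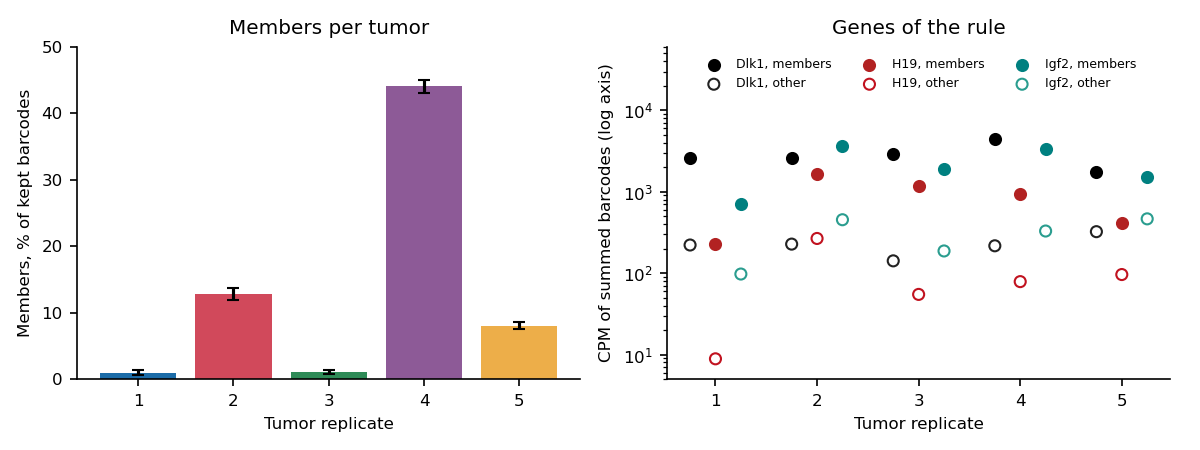
Left, members as a percentage of kept barcodes in each tumor, with 95% exact binomial intervals. Right, Dlk1, H19 and Igf2 in CPM (UMIs per 1000000 UMIs of the summed barcodes, log axis) in the summed members (filled) and in the summed other non-cycling fusion-allele barcodes (open) of each tumor. Tumor 4 stands at 44.1% and tumors 1 and 3 at 0.914% and 1.03%, and the filled points lie above the open ones because the rule chose them on these genes.

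Several properties of the libraries bear on these numbers. Tumor libraries held 14967680 to 69411387 UMIs. No barcode of control replicates 1 to 3 met the rule: Luc and the fusion had 0 UMIs there, 13 barcodes had an IRES UMI, and the reporter sequence of the controls had 379, 556 and 494 UMIs against 0 in every tumor. In control replicate 4 the added sequences were not read, because its list of features held 32287 entries against 32289 matrix rows. Its other genes were placed by the row order of the complete list of the other libraries. Over the 4 controls, 28 barcodes reached 5 UMIs of Dlk1, H19 and Igf2. In the 3000 barcodes with the fewest UMIs in each tumor, whose median depth was 559 to 649 UMIs, Dlk1 stood at 123, 676, 486, 1810 and 543 CPM. There H19 stood at 17.1, 1041, 138, 747 and 237 CPM, Igf2 at 76.4, 1133, 325, 1929.8 and 742 CPM and Luc at 12, 79.0, 16.6, 212 and 61.4 CPM. Tumor 3 had 9001 barcodes in all, so that some of its smallest ones were also among those kept. Barcodes with at least 5 of 10 microglial markers, which should lack the allele, met the rule in 0, 3.99, 0.257, 23.0 and 3.47% of cases in tumors 1 to 5, against 1.07, 16.4, 1.26, 50.7 and 8.57% of the barcodes below that number of markers. The median depth of those microglial barcodes was 2045.5, 2257, 974.5, 4218 and 1956 UMIs. Of them, 0.990, 21.6, 1.09, 55.6 and 13.9% had at least 5 UMIs of Dlk1, H19 and Igf2 together. In members, the 10th percentile of the 3 genes together was 1380, 2419, 1797, 2032 and 1746 CPM. In tumors 2 and 4 that lay below the summed level of the 3 genes in the smallest barcodes, and in tumors 1, 3 and 5 above it. Of the members, 1914 had at least 3 detected markers of 1 other cell type, erythroid cells not counted, 472 were called doublets, and 1 barcode sequence was shared between tumors. With the marker-carrying barcodes left out, 17, 449, 45, 3020 and 621 members remained in tumors 1 to 5. The 3 comparisons between groups of barcodes below were therefore also run without these marker-carrying barcodes, a setting added after the data were seen. Tumor 1, with 17 members remaining, then fell under the 20 barcodes needed for a sum, so that the first and the third comparison without marker-carrying barcodes rest on tumors 2 to 5. Barcodes with erythroid markers stayed in. In tumor 3, 88.4% of members and 83.3% of the other non-cycling fusion-allele barcodes had at least 3 of the 5 erythroid markers, against under 1% of both in each of the other tumors.

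The genes of the rule were mixed in different proportions in each tumor. Dlk1 stood at 2588, 2587, 2935, 4461 and 1753 CPM in the members of tumors 1 to 5, H19 at 225, 1661, 1166, 944 and 419 CPM and Igf2 at 701, 3651, 1918, 3373 and 1529 CPM. Dlk1 gave 73.6, 32.8, 48.8, 50.8 and 47.4% of the UMIs of the 3 genes, so that it led in tumors 1, 3, 4 and 5, and Igf2 led in tumor 2 with 46.2%. All 3 genes were detected together in 26.9, 84.7, 56.5, 72.0 and 47.8% of members, whose median depths were 3744, 5468.5, 3932, 5396 and 3665 UMIs. Luc, the luciferase of the allele, stood at 234, 204, 196, 379 and 215 CPM, highest in tumor 4. In 84.6, 60.7, 72.5, 38.3 and 71.3% of members the allele was seen as a single UMI. The members just inside the limit, with 5 UMIs of the imprinted genes, numbered 3, 39, 8, 97 and 91, and the barcodes just outside it, with 4 UMIs, numbered 4, 54, 6, 130 and 125. At the cycle limit, 0, 89, 5, 388 and 182 members had 2 of the 8 cycle genes and 0, 66, 2, 203 and 100 barcodes just outside had 3.

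The first comparison asked how members differed from barcodes that also held an allele UMI but few UMIs of Igf2, H19 and Dlk1. The comparison barcodes were also non-cycling, had an allele UMI and had fewer than 5 UMIs of the 3 genes. They numbered 45, 234, 72, 467 and 733 in tumors 1 to 5, and their median depths of 2293, 1712, 1220, 3518 and 1716 UMIs were below those of the members in each tumor. At least 3 microglial markers were detected in 15.6, 45.7, 29.2, 36.8 and 17.9% of them, and of the microglial barcodes described above 1.49, 10.1, 0.965, 34.4 and 12.8% had an allele UMI. Their median mitochondrial share was 11.0, 11.3, 7.09, 2.73 and 4.01%, above the 8.54, 7.57, 5.27, 2.49 and 3.73% of the members. The part of mitochondrial share in the differences was not tested. Counts were summed within each tumor, and edgeR's quasi-likelihood test with tumor as a block was applied to 12054 genes outside the rule. Of these, 1085 were higher in members (9.0%) and 1698 were lower (14.1%) at an adjusted p under 0.05, with a median log2 fold change over all tested genes of -0.03. Without marker-carrying barcodes, 590 of 11113 genes were higher (5.31%) and 641 were lower (5.77%), and 518 higher and 571 lower genes were called both ways. With tumor 1 left out and all other barcodes kept, the counts were 1034 and 1686. With barcodes thinned to 2000 UMIs, and those under 2000 UMIs left out, the counts were 477 and 771. Thinning kept 28, 90, 26, 467 and 283 of the comparison barcodes in tumors 1 to 5, so it also changed which barcodes were compared. The counts were 613 and 827 without tumor 4, 894 and 1035 without tumor 2 and 723 and 1098 without tumor 5.

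Imprinted genes outside the rule were higher in members or did not pass the test. Of 24 such genes, 19 were tested, 5 higher and 0 lower in members, with a median log2 fold change of 0.25. Cdkn1c, which encodes the cell cycle inhibitor p57, stood at 267, 480.1, 1479, 735 and 1883 CPM in the members of tumors 1 to 5 and at 0, 63.3, 142, 86.2 and 527 CPM in the comparison barcodes. It was higher in members in 5 of 5 tumors, by a log2 fold change of 2.88 ± 0.24 (SE, adjusted p = 2.33e-07). In tumor 1 it had 32 UMIs in members and 0 in the comparison barcodes, at least 10.0-fold higher when 3 UMIs per library are taken as the floor. Mest, a paternally expressed gene of mesoderm and growing tissue, stood at 125, 209, 508, 215 and 251 CPM against 213, 70.1, 133, 47.1 and 174 CPM, higher in members by 1.33 ± 0.26 (adjusted p = 0.00108) and in 4 of 5 tumors. Plagl1, a zinc-finger regulator of other imprinted genes, was higher by 1.58 ± 0.45 (adjusted p = 0.0148), also in 4 of 5 tumors. Nnat was higher by 0.95 ± 0.13 and the non-coding RNA Kcnq1ot1 by 0.58 ± 0.18. Without marker-carrying barcodes, 4 of 18 tested genes were higher and Nnat, at 0.52, no longer passed the test. Meg3, the neighbor of Dlk1, stood at 2855, 423, 1566, 236 and 1276 CPM in members and 3929, 2793, 1842, 94.3 and 1208 CPM in the others. Its log2 fold change of -0.32 did not pass the test, and the tumors did not share a direction.

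The 3 genes of the rule lie in 2 imprinted domains, and the genes around them were looked at after other values had been seen. H19 occupies chr7:142575529-142578143 and Igf2 chr7:142650766-142666816, both on the minus strand, and Dlk1 occupies chr12:109452823-109463336 on the plus strand (GRCm38). Within 1 Mb of the H19 start, 19 other genes were tested, 6 were higher in members and 1 was lower. Over all tested genes, 9.0% were higher and 14.1% were lower. Cdkn1c and Kcnq1ot1, already counted among the imprinted genes above, are among the 6. Tnnt3, a troponin gene of skeletal muscle at chr7:142498836-142516009, starts 79.3 kb from H19 and stood at 167, 9.56, 1516, 514 and 12.8 CPM in members against 26.6, 1.71, 91.4, 40.2 and 6.61 CPM in the others. Members were higher in 5 of 5 tumors, by 3.40 ± 0.32 (adjusted p = 8.54e-07), whatever the level of the tumor. Igf2os, a transcript on the opposite strand that overlaps Igf2, was higher by 2.00 ± 0.37, and its counts are uncertain because of that overlap. Against the cycling counterparts compared below, Tnnt3 (-0.73, edgeR adjusted p = 0.0098) and Igf2os (-0.52, adjusted p = 0.012) were lower in members. Against the allele-negative counterparts compared below, both were higher (0.44 and 0.81). There, without marker-carrying barcodes, Tnnt3 was at 0.077 and did not pass the test, and Igf2os was at 0.66. Mrpl23, which starts between Tnnt3 and H19, was at 0.36 and did not pass the test. Lsp1 (0.81) and Gm20501 (1.66, and 1.42 without marker-carrying barcodes, not passing the test) were higher, the lysosomal protease gene Ctsd was lower (-0.97, and 0.54, not passing the test, without marker-carrying barcodes), and Cdkn1c, at chr7:143458339-143461050, is the most distant of the higher genes. Around Dlk1, 10 genes were tested, 2 were higher and 1 was lower, to be read against the same shares over all tested genes. Begain, which starts 385 kb from Dlk1, was higher by 1.22 ± 0.16 (adjusted p = 2.08e-05), whereas Meg3, Rian (-0.36) and Mirg (0.07) did not pass the test.

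**Figure D2:**
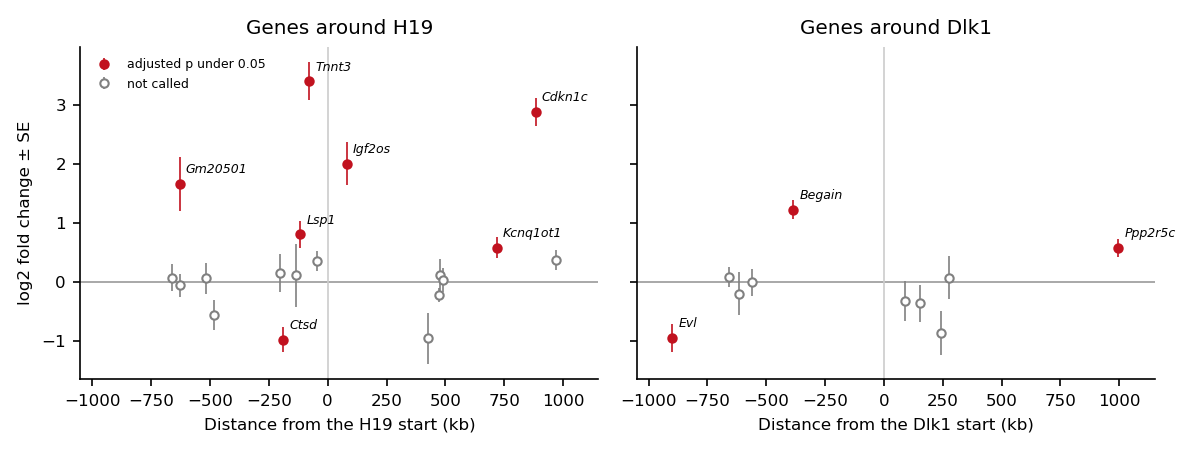
Log2 fold change with its SE, members over other non-cycling fusion-allele barcodes, of the tested genes within 1000 kb of the start of H19 (left) or Dlk1 (right), against distance in kb. Filled red points passed an adjusted p of 0.05 and open gray points did not. Tnnt3 (3.40) and Cdkn1c (2.88) stand highest around H19 and Begain (1.22) around Dlk1.

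Since Plagl1 was among the higher genes, promoters were searched for letters that its relative PLAG1 is known to bind. These were GGGGC or GAGGC followed by GGG with 7 bases of any kind between. Either strand could hold them, in the 250 bases before each RefSeq start. No separate letters were searched for Plagl1 itself. Of 251 genes that were called at least 2-fold higher, and also called higher without marker-carrying barcodes, 185 had a promoter in the table, and 30.8% of those held a match. The share was 22.0% for the 327 lower genes with a promoter, 19.9% for the 9479 tested genes with one and 11.9% for all 27025 genes with one. A gene was counted if any of its windows held a match. The base composition of the promoters was not taken into account. The NF-κB letters were GGGA and TTCC with 2 bases of any kind between, searched on both strands. They were in 1.08% of the higher genes, 2.14% of the lower genes, 1.42% of the tested genes and 1.36% of all genes with a promoter. Such a match is a description of letters and not a binding site. Promoters of Plagl1, Igfbp2 and Mgst1, which were higher in members, are printed because they hold a match, with the matches in capitals (RefSeq, GRCm38.p6, plus strand), and that of Dlk1, a gene of the rule, is printed for contrast because no match was found in its window or in the 4 Igf2 windows. The other window of Igfbp2 and that of Mgst1 held no match, nor did those of the higher genes Nnat, Mest, Kcnq1ot1, Ngfr, Ckb, Tekt5, Lmx1b and Ephb2 or the lower genes Fcer1g, Mpeg1, Srgn, Rgs10, Trem2, Igfbp5 and Igf1. Matches were also found for the higher genes Fam83e, Aif1l, Sox2 and Notch1 and for the lower genes L1cam, Cyba and Igfbp7.
Plagl1, chr10:13090582-13090831: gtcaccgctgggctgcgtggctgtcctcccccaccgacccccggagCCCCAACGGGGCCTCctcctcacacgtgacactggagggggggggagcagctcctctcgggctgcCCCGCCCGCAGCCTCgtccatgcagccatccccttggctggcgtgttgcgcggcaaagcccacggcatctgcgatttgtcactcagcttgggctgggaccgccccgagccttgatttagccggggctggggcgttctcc
Igfbp2, chr1:72824230-72824479: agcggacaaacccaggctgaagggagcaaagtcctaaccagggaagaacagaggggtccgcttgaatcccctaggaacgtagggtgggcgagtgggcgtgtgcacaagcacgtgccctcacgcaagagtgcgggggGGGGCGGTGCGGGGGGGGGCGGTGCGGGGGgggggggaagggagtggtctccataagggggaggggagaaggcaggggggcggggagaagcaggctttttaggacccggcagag
Mgst1, chr6:138140277-138140526: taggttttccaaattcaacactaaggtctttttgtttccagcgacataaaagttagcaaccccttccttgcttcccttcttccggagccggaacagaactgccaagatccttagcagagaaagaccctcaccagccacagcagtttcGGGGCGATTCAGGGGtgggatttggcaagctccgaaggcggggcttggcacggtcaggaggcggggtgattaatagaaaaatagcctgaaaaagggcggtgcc
Dlk1, chr12:109452573-109452822: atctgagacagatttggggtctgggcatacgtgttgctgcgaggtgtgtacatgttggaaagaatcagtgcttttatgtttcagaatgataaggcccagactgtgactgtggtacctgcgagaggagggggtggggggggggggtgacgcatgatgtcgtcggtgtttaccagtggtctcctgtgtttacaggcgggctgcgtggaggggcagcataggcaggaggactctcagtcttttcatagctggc

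The IGF axis outside Igf2 did not move as a group. Of 13 genes, 13 were tested, 1 higher and 3 lower in members, and without marker-carrying barcodes 3 of 12 were higher and 2 lower. Igfbp2, a secreted IGF-binding protein of fetal tissue whose promoter is printed above, stood at 8.35, 1211, 248, 321 and 50.5 CPM in members and 17.7, 248, 41.1, 77.7 and 21.0 CPM in the others. It was higher by 2.05 ± 0.21 (adjusted p = 1.67e-06) and in 4 of 5 tumors, and tumor 1 held only 1 and 2 UMIs. Igfbp5, another binding protein, went the other way, with 83.5, 82.6, 57.5, 38.2 and 143 CPM in members and 79.8, 287, 201, 90.5 and 623 CPM in the others (-1.58 ± 0.19, adjusted p = 8.98e-06). Igf1, which microglia express in the brain, was lower (-2.24 ± 0.48) and did not pass the filter on low counts without marker-carrying barcodes. Igfbp7, a binding protein of vessels, was lower too (-0.84) and did not pass the test there (-0.39). The receptor genes Igf1r (0.40) and Igf2r (0.44) did not pass the test. Of 10 oncofetal genes, 4 passed the filter, edgeR called 0 at an adjusted p and 2 at an unadjusted p under 0.05, and DESeq2 called 0.

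Of 10 genes associated with ZFTA-RELA ependymoma, 10 were tested, 5 higher and 1 lower in members, with a median log2 fold change of 0.63. Ccnd1, which encodes cyclin D1, stood at 200.4, 1006, 642, 658 and 360.4 CPM in members and 79.8, 292, 114, 358 and 155 CPM in the others, higher in 5 of 5 tumors by 1.54 ± 0.19 (adjusted p = 9.33e-06). Lmx1b, a homeobox gene, was higher by 1.43 ± 0.25 and Ephb2, an ephrin receptor gene, by 1.20 ± 0.21, each in 5 of 5 tumors. Notch1 and the stem cell factor gene Sox2 were higher by 0.55 and 0.71. L1cam, an adhesion gene used as a marker of this tumor type in patients, was lower in 5 of 5 tumors. It had 0, 13, 0, 60 and 10 UMIs in members and 4, 8, 10, 12 and 21 UMIs in the much smaller sums of the others, or 0, 2.96, 0, 2.24 and 3.20 CPM against 35.5, 13.7, 45.7, 6.43 and 12.6 CPM (-2.18 ± 0.46, adjusted p = 0.00185). Without marker-carrying barcodes, Ccnd1 (1.46), Lmx1b (1.05) and Ephb2 (0.73) were higher and L1cam lower (-2.52), while Notch1 (0.37) and Sox2 (0.52) did not pass the test. Among 10 NF-κB target genes, 9 were tested, 0 lower and 1 higher in members, near the 9.0% called higher over all tested genes. The higher gene was Icam1, an adhesion molecule for leukocytes (1.51 ± 0.22, adjusted p = 5.24e-05), which was higher in only 3 of 5 tumors.

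**Figure D3:**
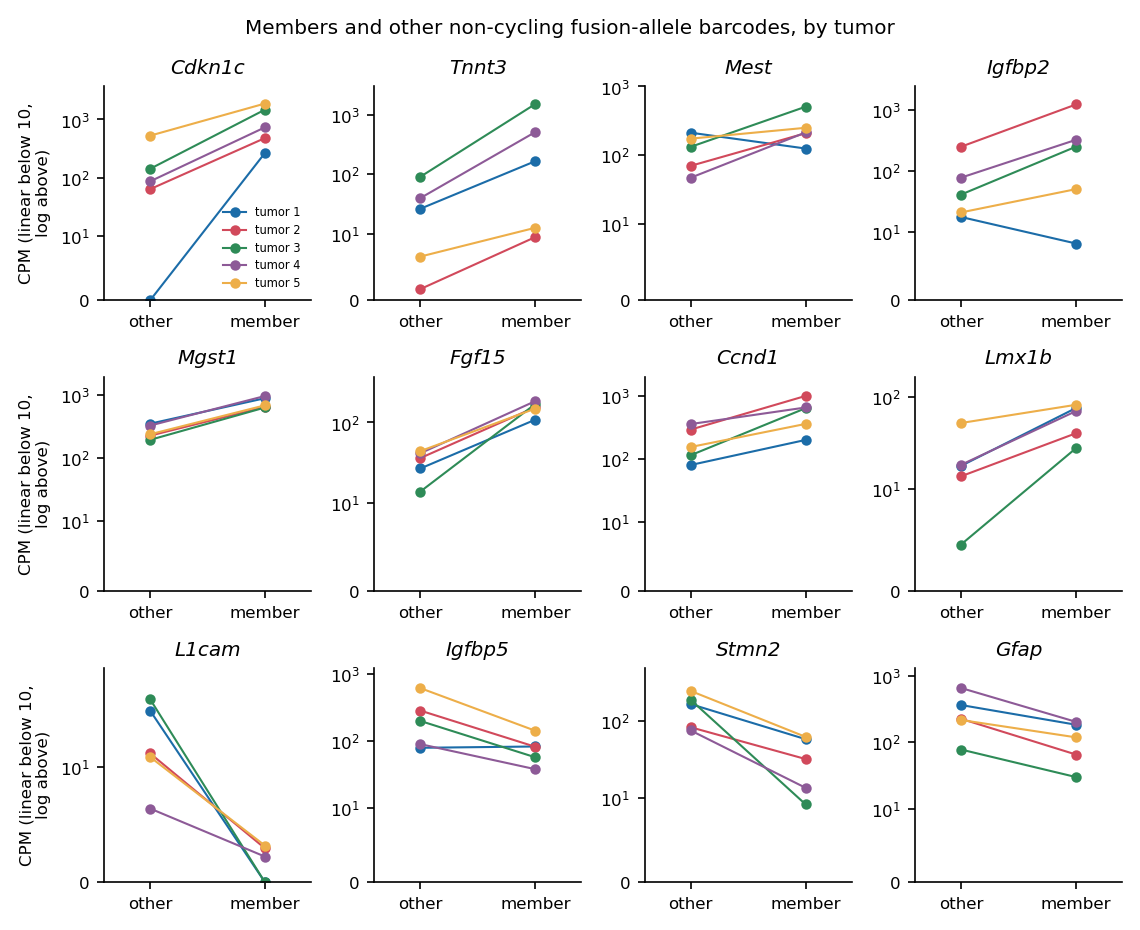
CPM of 12 genes in the summed other non-cycling fusion-allele barcodes and in the summed members, 1 line for each tumor, on axes that are linear below 10 CPM and logarithmic above. Lines rise in 5 of 5 tumors for Cdkn1c, Tnnt3, Mgst1, Fgf15, Ccnd1 and Lmx1b and in 4 of 5 for Mest and Igfbp2, and they fall in 5 of 5 for L1cam, Stmn2 and Gfap and in 4 of 5 for Igfbp5.

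The 10 genes with the smallest p among those called, at least 2-fold higher and higher in each tumor were Cdkn1c, Mgst1, Ckb, Fgf15, Ngfr, Col1a1, Tnnt3, Tekt5, Aif1l and Fam83e. Mgst1, a membrane glutathione transferase gene, was steady between tumors, with 902, 655, 642, 978 and 695 CPM in members and 355, 229, 197, 332 and 241 CPM in the others (1.59 ± 0.13, adjusted p = 2.33e-07). Fgf15, a growth factor gene of the embryonic neuroepithelium, stood at 109, 155, 170.2, 185 and 149 CPM against 26.6, 35.9, 13.7, 41.2 and 43.9 CPM (2.19 ± 0.20, adjusted p = 5.69e-07). For both genes the lowest tumor in members lay above the highest in the others. Ngfr, the p75 neurotrophin receptor gene, was higher by 1.82 ± 0.17, the brain creatine kinase gene Ckb by 1.37 ± 0.12, the fibrillar collagen gene Col1a1 by 2.22 ± 0.21 and Fam83e by 2.37 ± 0.25. All 10 were also higher without marker-carrying barcodes, by 1.06 to 3.30. The genes that led among the lower ones included Fcer1g, Cyba, Mpeg1, Srgn, Rgs10, Cd52, Trem2, Gngt2 and Lyn, most of them genes of microglia and other leukocytes. Without marker-carrying barcodes, Trem2 (-0.66) did not pass the test and Mpeg1 and Gngt2 did not pass the filter.

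With all barcodes, neural lineage lists held genes of both directions, apart from lower astrocyte genes. The neuroblast and oligodendrocyte precursor lists had more lower than higher genes with and without marker-carrying barcodes, and the motile cilia list only without them. Of 14 radial glia genes, 13 were tested, 5 higher and 2 lower in members, with a median of 0.39. Without marker-carrying barcodes 3 were higher and 1 lower, with a median of 0.09. The progenitor filament gene Nes was higher by 0.86 ± 0.19, and the Notch effector genes Hes1 and Hes5 by 0.87 ± 0.27 and 1.31 ± 0.19. Hopx, a gene of outer and quiescent radial glia, was lower (-1.49 ± 0.33, adjusted p = 0.00244), with 125, 8.65, 32.2, 17.9 and 18.5 CPM in members and 79.8, 47.9, 54.8, 104 and 28.9 CPM in the others. Of 8 astrocyte genes, 8 were tested, 0 higher and 5 lower in members, and no astrocyte gene was higher at an unadjusted p under 0.05 in edgeR (0) or at an adjusted p in DESeq2 (0). The astrocyte filament gene Gfap stood at 184, 65.3, 29.9, 203 and 119 CPM in members and 364, 226, 77.7, 657 and 216 CPM in the others (-1.33 ± 0.17, adjusted p = 1.22e-05), and Agt, which encodes angiotensinogen, was lower by more (-1.99 ± 0.25).

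Of 14 genes of neuroblasts and neuronal commitment, 13 were tested, 2 higher and 4 lower in members. The higher genes included Sox4, a transcription factor gene of neuronal differentiation (0.59), which did not pass the test without marker-carrying barcodes (0.25). In that setting 1 of 14 genes was higher and 7 were lower. The neuronal cytoskeleton gene Stmn2 stood at 58.4, 32.1, 9.20, 13.5 and 62.6 CPM in members and 169, 83.8, 192, 76.1 and 251 CPM in the others (-2.11 ± 0.24, adjusted p = 3.94e-06), and Dcx was lower by less (-1.03 ± 0.26). Against comparison barcodes at 0 UMIs of the imprinted genes, in a fit without tumor 2, Dcx was at 0.069 and did not pass the test. Of 8 oligodendrocyte precursor genes, 8 were tested, 2 higher and 4 lower in members: the early lineage factors Olig1 (0.75) and Olig2 (0.83) were higher, and Pdgfra (-1.38), Gpr17 (-2.10), Cnp (-1.24) and C1ql1 (-1.49) were lower. Olig2 did not pass the test without marker-carrying barcodes (0.51). Of 10 genes of ependyma and motile cilia, 6 were tested, 1 higher and 1 lower in members. Foxj1, which drives the making of motile cilia, was at 0.35 and did not pass the test. Without marker-carrying barcodes 8 were tested, 1 higher and 4 lower, and the median of this list moved from -0.76 to -1.90. Of 15 regional patterning genes, 11 were tested, 3 higher and 1 lower in members. Gsx2, of the ventral forebrain, had 4, 6, 8, 35 and 126 UMIs in members and 0, 0, 0, 0 and 16 in the others (2.51 ± 0.52, a fitted value that depends on the prior count). The sums were unequal, with 4394683 against 584646 UMIs in tumor 2 and 26762147 against 1867182 in tumor 4. With 3 UMIs as the floor, members were at least 1.25- and 1.34-fold higher in tumors 1 and 3, and tumors 2 and 4 gave no such bound. Six3 was higher by 1.23 ± 0.17 and Otx1 by 1.01, and Otx1 did not pass the test without marker-carrying barcodes (0.85).

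Of 9 genes of D-type cyclins, their kinases and CDK inhibitors, 9 were tested, 3 higher and 0 lower in members: Ccnd3 (1.48 ± 0.16), Cdk4 (0.84 ± 0.17) and the tumor suppressor Cdkn2a (0.79 ± 0.21), which did not pass the test without marker-carrying barcodes (0.61). Of 20 further replication and division genes, 16 were tested, 1 higher and 0 lower in members, and 0 were higher without marker-carrying barcodes. Both groups had met the same limit on cycle genes, so the small number of calls is no finding. Growth factor receptor genes numbered 12, of which 10 were tested, 3 higher and 2 lower in members, with Fgfr1 at 1.06 ± 0.18 and Erbb2 at 1.33 ± 0.40. Without marker-carrying barcodes 1 was higher and 1 lower, and Erbb2 did not pass the test (1.10). Of 11 Notch and Hedgehog genes, 11 were tested, 3 higher and 1 lower in members, and without marker-carrying barcodes 0 of 8 were higher. Of 14 secreted factors that act on myeloid or vascular cells, 11 were tested, 4 higher and 4 lower in members, and without marker-carrying barcodes 1 was higher and 0 lower of 10. Midkine, encoded by Mdk, stood at 1436, 1623, 1449, 1678 and 961 CPM in members and 736, 356, 754, 303 and 449.7 CPM in the others, without overlap (1.62 ± 0.20, adjusted p = 1e-05). Vegfa was higher by 0.65 and Csf1, the growth factor of microglia, by 0.53, and without marker-carrying barcodes these were at 0.51 and 0.41 and did not pass the test.

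Of 12 hypoxia genes, 11 were tested, 4 higher and 3 lower in members, with Ddit4 at 1.03 ± 0.17 and the lactate dehydrogenase gene Ldha at 0.69 ± 0.14. Without marker-carrying barcodes 3 of 9 were higher and 0 lower, and the median moved from -0.34 to 0.51. The list of the stress response and serine synthesis held 8 genes, of which 7 were tested, 1 higher and 0 lower in members, namely Phgdh, the first enzyme of serine synthesis (0.76 ± 0.16). Of 11 genes that respond to tissue dissociation or heat shock, 11 were tested, 5 higher and 0 lower in members, and 8 were higher without marker-carrying barcodes. Fos was higher by 0.77, Fosb by 0.93 and Egr1 by 1.02. These stress genes moved with the group, and their part in the other differences was not tested.

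Matrix and antigen presentation genes were mostly lower, and fewer were called without marker-carrying barcodes. Of 14 matrix genes, 13 were tested, 1 higher and 8 lower in members, and without marker-carrying barcodes 9 were tested and 3 were lower, among them Sparc (-1.86 ± 0.16 with all barcodes, -1.35 without). Of 14 antigen presentation genes, 11 were tested, 1 higher and 6 lower in members. The class I genes B2m (-1.07) and H2-K1 (-0.69) were lower, but without marker-carrying barcodes they stood at 0.34 and 0.17 and did not pass the test. Cd74, the class II chaperone gene of myeloid cells, was lower both ways (-4.63 and -4.02).

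Most markers of other cell types were lower in members. Lower were 10 of 10 tested microglial markers, 7 of 7 of endothelium, 6 of 6 of mature oligodendrocytes, 3 of 5 of other leukocytes, 3 of 4 of mural cells and fibroblasts, 5 of 7 of neurons, 1 of 3 of choroid plexus and 4 of 4 of erythroid cells. In the neuronal list 1 gene was higher, and the choroid plexus list had a median of 0.16. Without marker-carrying barcodes, 2 of 7 microglial and 0 of 6 endothelial markers were lower. Barcodes were left out by these same marker genes, erythroid ones apart, so this drop is no finding. The microglial markers summed to 100.2 to 1496 CPM in the members of the 5 tumors and to 2541 to 11819 CPM in the others, and P2ry12, Cx3cr1 and Csf1r were at 0 in the members of tumor 1. The endothelial markers summed to 41.7 to 138 against 151 to 1060 CPM, those of mature oligodendrocytes to 294 to 1279 against 623 to 2642 CPM, and those of neurons to 276 to 484 against 185 to 958 CPM, with tumor 4 higher in members (276 against 185 CPM). Sums over barcodes cannot tell fewer marker-carrying cells from less of the marker RNA in each, and the part of these markers in the other differences was not tested beyond leaving such barcodes out.

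**Figure D4:**
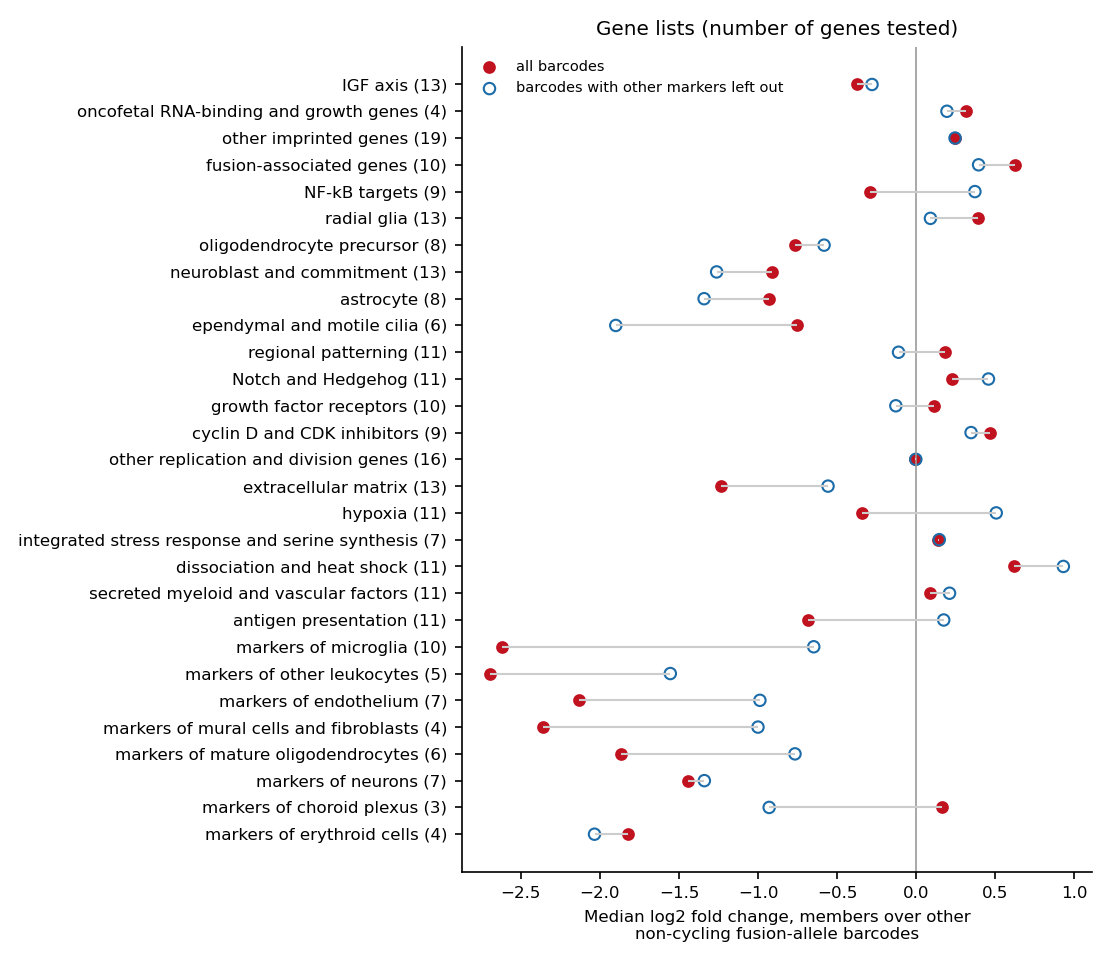
Median log2 fold change of each gene list, members over other non-cycling fusion-allele barcodes, with all barcodes (filled) and with barcodes carrying other cell types' markers left out (open). The microglial list moves from -2.62 to -0.65 and antigen presentation from -0.69 to 0.17, while the astrocyte list stays low, at -0.93 and -1.34. Marker lists other than the erythroid one decided which barcodes were left out, so their moves are no finding.

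The second comparison set members against cycling counterparts, which met the same limits on the allele and the imprinted genes but had 3 or more of the 8 cycle genes. Tumors 2, 4 and 5 held enough of them, 279, 966 and 394 barcodes with median depths of 8488, 8803.5 and 5972.5 UMIs, above those of the members. Of 12970 genes tested, 1398 were higher in members (10.8%) and 1683 were lower (13.0%), with a median log2 fold change of 0.04. Without marker-carrying barcodes, 1278 of 11836 were higher (10.8%) and 1346 lower (11.4%), and 1029 higher and 1318 lower genes were called both ways. DESeq2 called 548 and 1078, and thinning to 2000 UMIs gave 848 and 1062. The counts were 525 and 1044 without tumor 4 and 727 and 1133 without tumor 2. All 20 of the further replication and division genes were lower, by a median of -4.06, with Pcna at -1.78 and Ccnb1 at -5.09, and because the rule used cycle genes this is no finding. The 10 leading lower genes were likewise genes of division, Pimreg, Kif20b, Ckap2l, Neil3, Mad2l1, Spc25, Tpx2, Cenpe, Kif23 and Bub1b.

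Apart from division, most astrocyte genes were higher in members than in cycling barcodes. Of 8 astrocyte genes, 8 were tested, 7 higher and 0 lower in members. S100b, a calcium-binding protein gene of glia, stood at 245, 239 and 401 CPM in the members of tumors 2, 4 and 5 and at 80.7, 95.0 and 272 CPM in the cycling barcodes (1.09 ± 0.14, adjusted p = 4.72e-05). Gfap stood at 65.3, 203 and 119 against 36.6, 112 and 95.5 CPM (0.61 ± 0.12), and the water channel gene Aqp4 and the glutamate transporter gene Slc1a2 were higher by 0.88 and 0.86. Of 13 tested neuroblast genes, 6 were higher and 1 was lower, and the rest were not called, with Tubb3 at 1.48 ± 0.33, Stmn2 at 0.89 ± 0.17 and Dcx at 0.76 ± 0.21. Of 8 oligodendrocyte precursor genes, 8 were tested, 5 higher and 0 lower in members. Radial glia genes were divided, with 4 higher and 2 lower of 13 tested, and 5 higher and 2 lower of 12 without marker-carrying barcodes. Hopx was among the higher genes (1.13 ± 0.25), and Pax6 (-0.78 ± 0.15) and Nes (-0.47 ± 0.12) were the lower ones with all barcodes. Without marker-carrying barcodes, 7 astrocyte, 6 neuroblast and 6 oligodendrocyte precursor genes were higher. Some marker lists of other cells moved in the same direction. Higher were 9 of 10 microglial, 6 of 6 mature oligodendrocyte and 3 of 7 neuronal markers, and 2 of 8, 3 of 3 and 3 of 7 without marker-carrying barcodes. The same markers decided which barcodes were left out. Endothelial, mural and erythroid lists did not, with 0 of 7, 0 of 5 and 0 of 4 tested markers higher and 0 lower.

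**Figure D5:**
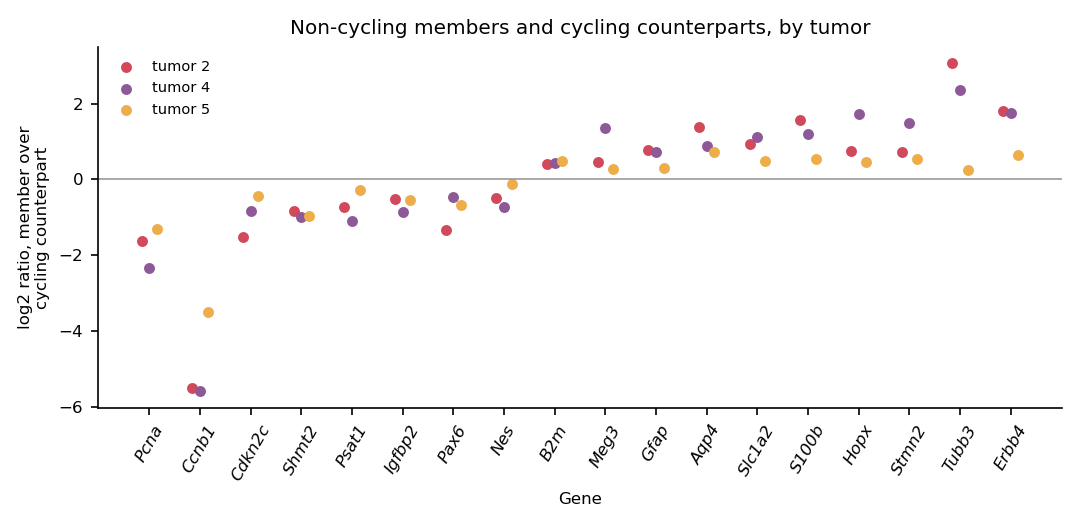
Log2 ratio of members over cycling counterparts in tumors 2, 4 and 5 for 18 genes, 1 point for each tumor. The division genes Pcna and Ccnb1, and Shmt2, Igfbp2 and Pax6, lie below 0 in 3 of 3 tumors, and the astrocyte genes Gfap, Aqp4, Slc1a2 and S100b lie above 0 in 3 of 3.

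Of 24 imprinted genes outside the rule, 19 were tested, 6 higher and 0 lower in members. They included the 3 non-coding RNAs beside Dlk1, Meg3 (0.71 ± 0.15, adjusted p = 0.0034), Rian (0.55 ± 0.16) and Mirg (1.06 ± 0.23), as well as Impact (0.74 ± 0.13). Meg3 stood at 423, 236 and 1276 CPM in members and 297, 82.8 and 1049 CPM in the cycling barcodes. Cdkn1c was at 0.40 and did not pass the test, with 480.1, 735 and 1883 CPM in members against 203, 506 and 2382 CPM. Igfbp2 was lower in members (-0.64 ± 0.10, adjusted p = 0.000221), and Pappa, a protease gene that frees IGF from binding proteins, was higher (1.44 ± 0.28). Of 10 fusion-associated genes, 10 were tested, 2 higher and 0 lower in members, and Ccnd1 was at -0.13. Cdk4 (-0.45), Cdkn1a (-0.76) and Cdkn2c (-0.93) were lower and the inhibitor gene Cdkn2b was higher (0.68). Of 8 stress response and serine synthesis genes, 8 were tested, 0 higher and 5 lower in members, with Shmt2 at -0.94 ± 0.11, Psat1 at -0.78 ± 0.14 and the asparagine synthetase gene Asns at -0.85 ± 0.14. The class I genes B2m and H2-K1 were higher by 0.45 ± 0.09 and 0.44 ± 0.09, and the Notch ligand genes Dll1 and Dll3 by 0.76 and 0.93. Erbb4, a neuregulin receptor gene, was higher by 1.45 ± 0.29. The leading higher genes included S100a9, Tnr, Scrg1, Kdm7a, S100a8, Tcp11l2, Enpp2, Gpnmb and Mbp, where Mbp is a myelin gene and S100a8 and S100a9 are neutrophil genes that did not pass the filter without marker-carrying barcodes.

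The third comparison asked what the requirement of an allele UMI added, by setting members against allele-negative counterparts. These were non-cycling, had at least 5 UMIs of the 3 imprinted genes and had no allele UMI. They numbered 127, 1489, 297, 2242 and 1710 in tumors 1 to 5, with median depths of 2944, 2461, 1429, 3561.5 and 2268 UMIs. A shallower barcode has less chance of an allele UMI, so some of them may carry the allele. Of 14173 genes tested, 577 were higher in members (4.07%) and 1284 were lower (9.06%), with a median log2 fold change of 0.01. Without marker-carrying barcodes, 175 of 12678 were higher (1.38%) and 263 lower (2.07%), and 145 higher and 213 lower genes were called both ways. With tumor 1 left out and all other barcodes kept, the counts were 521 and 1168. DESeq2 called 266 and 607, and thinning to 2000 UMIs gave 276 and 845. The counts were 164 and 661 without tumor 2, 161 and 622 without tumor 4 and 377 and 1226 without tumor 5.

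Of 24 imprinted genes outside the rule, 21 were tested, 4 higher and 1 lower in members, with Cdkn1c at 0.93 ± 0.17, Mest at 0.68 ± 0.11, Plagl1 at 0.74 ± 0.19 and Kcnq1ot1 at 0.51 ± 0.09, and with the growth-restraining gene Grb10 lower (-1.64 ± 0.36). Without marker-carrying barcodes 3 of 20 were higher and 0 lower, and Plagl1 (0.53) and Grb10 (-0.99) did not pass the test. Of 10 fusion-associated genes, 10 were tested, 6 higher and 0 lower in members, with Ccnd1 at 0.55 ± 0.09 and Lmx1b at 0.61 ± 0.12, and 2 were higher without marker-carrying barcodes. Hes5 (0.84), Dll1 (1.00), Six3 (0.66), Sox4 (0.59) and Icam1 (0.56) were higher both ways, but their lists were partly mixed. Of 13 tested radial glia genes, 2 were higher and 2 lower, and of 11 Notch and Hedgehog genes 4 and 1. Patterning genes gave 3 and 0 of 12, neuroblast genes 4 and 0 of 14, and NF-κB targets 1 and 2 of 10. Without marker-carrying barcodes, the counts in this order were 1 and 3, 2 and 0, 1 and 1, 2 and 0, and 2 and 0. Of 8 astrocyte genes, 8 were tested, 0 higher and 5 lower in members, among them Gfap (-0.73 ± 0.14) and Slc1a2 (-0.69 ± 0.10), and 7 were lower without marker-carrying barcodes. Of the 20 division genes, edgeR called 0, also at an unadjusted p under 0.05, and DESeq2 called 0. Both groups had met the same limit on cycle genes, so this is no finding. By the rule for leading genes, only Wnt10a, Egr1 and Btbd11 qualified as higher, with Wnt10a, a Wnt ligand gene, at 1.21 ± 0.17 (adjusted p = 6.52e-05). The leading lower genes included Ly6c1, Hbb-bs, Hbb-bt, Ifi27l2a, Hba-a2, Cldn5, Lyz2, Anxa3 and Ctsh, mostly genes of red cells, vessels and myeloid cells. The hemoglobin gene Hbb-bs stood at 0, 112, 1026, 13.3 and 76.4 CPM in members and 6.96, 1629, 10202, 423 and 653 CPM in the counterparts (-3.79 ± 0.21, adjusted p = 1.51e-09). Lower were 10 of 10 microglial, 7 of 7 endothelial and 5 of 5 erythroid markers, and 5, 0 and 5 of them without marker-carrying barcodes. The microglial and endothelial markers, but not the erythroid ones, decided which barcodes were left out. Choroid plexus markers summed to 13468 CPM in the allele-negative counterparts of tumor 1 against 134 CPM in its members, and to 26.6 to 59.2 against 22.4 to 42.0 CPM in the other tumors. Their part in the differences was not tested. Of 11 dissociation and heat shock genes, 5 were higher, and 9 without marker-carrying barcodes.

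Levels in members also differed between tumors 4 and 5, which held most of them, and many of these differences were seen in the other non-cycling fusion-allele barcodes too. Tumors 4 and 5 are 1 library each, so the values are given without a test. The intervals are exact Poisson 95% intervals for counting error only. Of 3866 genes at 50 CPM or more in the members of either tumor, 154 (3.98%) differed by over 4-fold. The imprinted gene Ndn stood at 243 CPM in tumor 5 (interval 226 to 261) and 0.149 CPM in tumor 4 (interval 0.0407 to 0.383), with 91.8, 12.5 and 16.1 CPM in tumors 1, 2 and 3. The interneuron lineage genes Dlx1 and Dlx2 stood at 174 and 139.6 CPM in tumor 5, at 5.90 and 2.13 CPM in tumor 4 and at 278 and 80.5 CPM in tumor 3. Hydin, a gene of motile cilia, stood at 106 CPM in tumor 5 and 1.42 CPM in tumor 4. In the other direction, the Hedgehog co-receptor gene Cdon stood at 115 CPM in tumor 4 (interval 111 to 119) and 0.959 CPM in tumor 5 (interval 0.198 to 2.80), and 90.1 CPM in tumor 2. The secreted Wnt inhibitor genes Notum and Sfrp2 stood at 62.6 and 154 CPM in tumor 4 and at 0.639 and 2.88 CPM in tumor 5, and Gpnmb at 121 and 1.28 CPM. The other genes that led were Tac2, Lims2, Aldh3b2 and AW112010 in tumor 4 and Snhg11, Sox1ot, Syt1, Mobp and Pcp4 in tumor 5, besides Eif2s3y, Ddx3y and Xist, which follow the sex of the mice. In the other non-cycling fusion-allele barcodes of tumors 5 and 4, Ndn stood at 307 and 0 CPM, Dlx1 at 269.9 and 6.43 CPM, Cdon at 2.40 and 68.0 CPM and Gpnmb at 4.21 and 234 CPM.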

How the data were processed

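The deposited matrices hold raw UMI counts per gene and barcode, not normalized, which the authors made from 10x 5′ libraries with Cell Ranger against mm10. The submitters' processing notes name Cell Ranger 7 and Scanpy 1.8.2, and the matrix headers name version 6.1.2. All barcodes in the matrices were read, down to 500 UMIs in the tumors. The members, gene lists and comparisons were chosen with earlier results of these data known.

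Counts of the barcodes of a class were summed per tumor where it held at least 20 barcodes. Sums were tested with edgeR 4.0.16 in R 4.3.3 (TMM scaling, default filter on low counts, quasi-likelihood test, Benjamini-Hochberg adjustment over all genes tested, threshold 0.05), after 14 features of the rule had been set aside. Both sums of a tumor come from the same library, so tumor was a block. The labels do not say how many mice gave each library. Nothing in the labels used here links tumors to litters or batches. With tumor as a block, p-values set the difference between groups of barcodes against how it varied from tumor to tumor. CPM is a count divided by all UMIs of the sum, times 1000000. UMIs here come from one end of a transcript and were not scaled by length. Alternatives were DESeq2 1.42.0, other filters, no block, leaving out each tumor and other limits of the rule. Barcodes with the highest Scrublet scores (0.8% per 1000 kept barcodes) were removed in another setting. Barcodes with 3 or more markers of another cell type (erythroid markers not counted) were left out in a further one. In the last, barcodes were thinned to 2000 UMIs and those with fewer were left out. The fits were tested on simulated data. Leading genes were the 10 each way with the smallest p among those with an adjusted p under 0.05, a log2 fold change of at least 1 in size, the same direction in each tumor and no Gm, Rik, mitochondrial or ribosomal protein name. Between tumors they were the 10 each way with the largest ratio at 50 CPM or more. Clopper-Pearson intervals were made with scipy 1.17.1 in Python 3.11.15, and doublet scores with scanpy 1.11.5. Some genes that met these rules are not reported here.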

Additional observations from a re-analysis of the deposited data

Results flagged for a closer look

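In 6 of 64 values compared over the 5 tumors, 1 tumor stood apart from the rest by Dixon's criterion, and chance alone gives about 1 in 20. Among summed markers of other cell types in members, endothelial markers were low in tumor 1 at 41.7 CPM (other tumors 110.4 to 138), choroid plexus markers were high in tumor 1 at 134 CPM (others 22.4 to 42.0), and erythroid markers were high in tumor 3 at 1882 CPM (others 0 to 169.5).

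The log2 ratios that follow were taken on CPM after TMM scaling and with a prior count. Against other non-cycling fusion-allele barcodes, Csf1 stood apart in tumor 3 with a log2 ratio of 1.43 (other tumors 0.46 to 0.70). In tumor 3 it had 34 UMIs in members and 7 in the others. Against allele-negative counterparts, tumor 3 stood apart in Gfap at -2.42 (13 against 119 UMIs; others -0.66 to -0.42) and in Vegfa at -0.10 (42 against 77 UMIs; others 0.61 to 0.88). A further 36 ratios, of genes with 3 UMIs or fewer in a sum, were not compared, because their size depends on the prior count.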

How the results depend on the processing

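Against other non-cycling fusion-allele barcodes, the counts of higher and lower genes were 39 and 174 with no replicate block, 477 and 771 with barcodes thinned to 2000 UMIs, 590 and 641 without marker-carrying barcodes (tumor 1 dropped for want of members), and 196 and 297 with comparison barcodes at 0 UMIs of the 3 imprinted genes, where tumor 2 held 19 of them and dropped out too. Leaving out 1 tumor gave 613 to 1034 higher and 827 to 1686 lower genes. Against cycling counterparts they were 548 and 1078 with DESeq2, 2 and 266 with no replicate block and 848 and 1062 after thinning, and leaving out 1 tumor gave 525 to 1787 and 1044 to 1952. Against allele-negative counterparts they were 266 and 607 with DESeq2, 276 and 845 after thinning and 175 and 263 without marker-carrying barcodes (tumor 1 dropped), and leaving out 1 tumor gave 161 to 591 and 622 to 1226. With no replicate block edgeR called 0 and 0 there, against 50 and 446 at an unadjusted p under 0.05. Members numbered 3274 with at least 2 allele UMIs and 3682 with no cycle gene detected. Of the named genes, 998 of 1151 recomputed values kept direction and side of the threshold in the first comparison, 416 of 486 in the second and 323 of 390 in the third. Among these values, direction turned without marker-carrying barcodes for B2m (0.34), H2-K1 (0.17) and Ctsd (0.54) in the first comparison and Ly6c1 (0.086) in the third. It also turned for Dcx (0.069) against barcodes at 0 UMIs of the imprinted genes. Outside these values, Meg3, which did not pass the test in the first comparison, went from -0.32 to 0.0019 without marker-carrying barcodes. The cause was not tested. Small sums limit tumors 1 and 3, whose members held 119779 and 434747 UMIs.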
